A study of Rattus norvegicus with 24 samples.

Results

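The saline group gave the control transcriptome of the embryonic day (E) 18 rat cortex, and it was read here as a description with no treatment contrast. Its members were the 6 pups whose sample label names Saline as the maternal treatment, of 24 pups in the series. The other 18 came in groups of 6 from dams given the Low Protein diet, methylazoxymethanol acetate (MAM) or Poly I:C. Timed pregnant Sprague-Dawley rats received saline on gestational day 17, and fetal tissue was collected 18 h later. Each RNA-seq sample joined hippocampus and neocortex of 1 pup. Per the study's methods the 6 pups of a group came from 2 litters. The sample names carry a pair of numbers that the labels do not explain, read here as litter and then pup, so pup 2-1 is taken as pup 1 of litter 2, with 3 pups in each litter. Saline was given to the dam, so pups of a litter share their exposure, and on that reading the spread between pups is a spread within and between 2 dams. The labels name no engineered allele in any group, and an isocaloric control diet was given to control rats, without a statement of whether every saline dam ate it.

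At E18 the rat cortical wall holds dividing progenitors, neurons on their way to the cortical plate and a layered set of young neurons. Radial glia line the ventricle and divide into intermediate progenitors, which give the glutamatergic neurons, deep layers before upper layers. Most GABAergic interneurons instead arise in the ganglionic eminences below the cortex and migrate in. The tissue also carries blood vessels, blood, microglia and remnants of meninges and choroid plexus. In bulk RNA, fewer cells of a type and less RNA per cell cannot be told apart.

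Values were the deposited TPM (transcript abundance scaled to each library) with an offset of 0.0001, over 17420 entries. Every pup's column summed to 70350. The value multiplied by a gene's genomic span fell within 0.05 of a whole multiple of a step for 50.3% to 54.8% of low values. The step was chosen for each pup as the one that best aligned these same values. The 10% expected by chance holds for a step set beforehand and is only a loose reference here. Levels are therefore per genomic span, introns included, so a long gene reads low beside a short gene of equal read count. The same step gave an estimated 22.6 to 49.2 M reads per pup, Rpl29 left out because of its doubtful span. As a second scale, estimated reads are given for some genes and pairs. Elsewhere words such as led, highest or above refer to the value per span, and the order by reads can differ. Of the 17420 entries, 5253 had a mean above 1, 13026 were above the offset in all 6 pups and 2752 (15.8%) stood at the offset in all 6.

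The tissue was first described by 3 markers of different cell classes. Tbr1, a T-box factor of early-born deep layer neurons, was at 12.6 in the lowest pup, 14.4 at the median and 16.9 in the highest, with a mean of 14.5 ± 1.43 (SD, n = 6). Dlx1, a homeobox factor of the ganglionic eminences and their interneurons, ran from 26.1 over a median of 30.3 to 44.8, with a mean of 32.0 ± 6.54. Both factors stood among the 624 highest entries, and Dlx1 was highest in pup 2-1. Pax6, the paired-box factor of radial glia, was far lower at 1.06 ± 0.17 (lowest 0.84, highest 1.28), which placed it at the 70.6th percentile of all entries. Eomes, the marker of intermediate progenitors, was not analysed here. Defining markers of the hindbrain and spinal cord were near the offset, as given below.

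Tubulins, actins and globins held the top of the list. Tuba1a, the alpha-tubulin of migrating neurons, had the highest mean at 2415 ± 93.3, with a lowest value of 2277, a median of 2448 and a highest of 2503. Hba1, an adult alpha-globin, followed at 2262 ± 396 and spanned 1603 to 2685, above Tuba1a in pups 1-1, 1-3 and 2-1 and below it in the others. Tubb2b, a beta-tubulin of young neurons, was at 1685 ± 66.7, and Actg1, cytoplasmic gamma-actin, at 1468 ± 73.4. The tubulins varied by 3.86% and 3.96% of their mean between pups, whereas Hba1 varied by 17.5%. Nnat, the imprinted membrane protein neuronatin, was at 1078 ± 244, with pup 2-1 at 1568 and the other 5 pups between 914 and 1050. Tubb5 (1045 ± 54.7) and Tuba1b (842 ± 66.9) completed the tubulins of the first 20.

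The remaining entries of the first 20 were widely expressed genes and the beta-globins of erythroid cells. Ubb, a polyubiquitin gene, was at 951 ± 44.6, and Hspa8, the constitutive heat shock 70 chaperone, at 909 ± 28.8, the smallest relative spread of the 20 (3.17%). Tmsb10 (907 ± 101) and Tmsb4x (632 ± 74.1) encode the beta-thymosins, which bind actin monomers. Translation was represented by Eef1a1 (811 ± 52.3), the elongation factor, and by the ribosomal proteins Rpl37 (764 ± 64.2), Rpl39 (658 ± 66.5), Rpl9 (583 ± 60.9) and Rps20 (540 ± 60.4). Rps20 was lowest in pup 2-1 (442), as were Rpl37 (678) and Rpl39 (549). Calm2, a calmodulin, was at 636 ± 72.6, Actb at 697 ± 49.0 and the beta-globins Hbb and LOC100134871 (Hbbl1 in RefSeq) at 642 ± 138 and 632 ± 142. The 20 entries held 28.7% of the summed value, between 27.1% and 29.2% by pup, and the highest 100 held 48.4%. Globin, tubulin, actin and ribosomal protein genes have near-identical copies, so the division of reads among their members is uncertain.

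**Figure D1:**
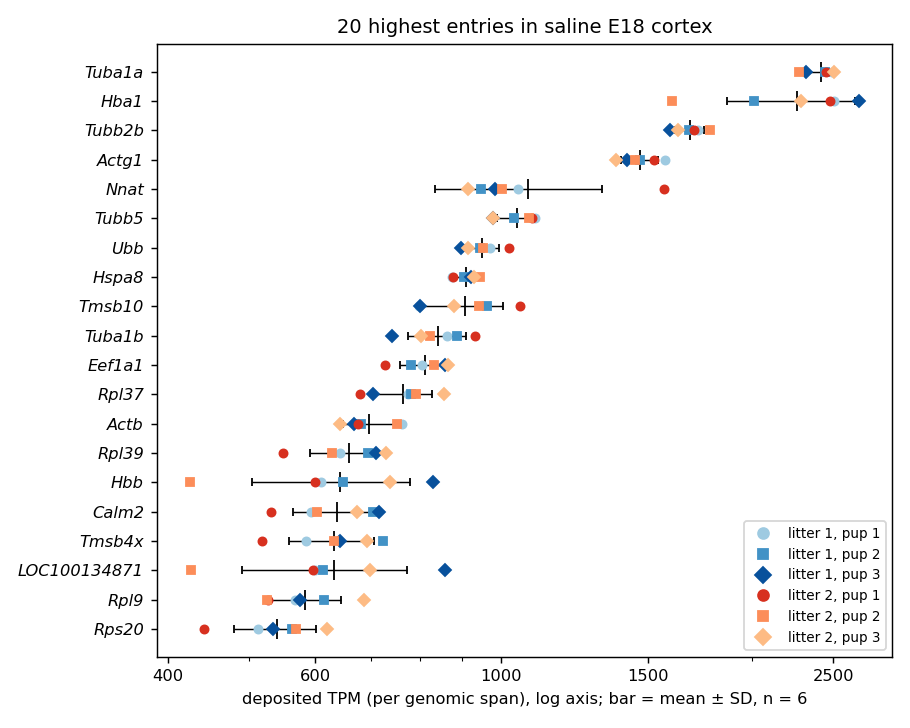
Deposited TPM (per genomic span, log axis) of the 20 highest entries, with 1 point per saline pup and the mean with its SD as a bar (n = 6). Tuba1a lies between 2277 and 2503 in all pups, whereas Nnat shows a single pup at 1568 and Hba1 runs from 1603 to 2685.

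On the read scale the order changed. Of the 20 entries, 9 stayed among the 20 highest by estimated reads, led by Tuba1a (521416 estimated reads on average), Calm2 (374402) and Tubb2b (236018). Genes of longer span moved up, such as Eef2, a translation elongation factor of 12420 bases, with 178215 estimated reads and a per-span value of 312 ± 17.4. Rpl29, Zwint, Fam110b and Tuba1c also entered the first 10 by reads, but the reference spans used for them (893235, 451143, 140096 and 441616 bases) come from the assembly GRCr8 and not the rn6 build of the files, and their read estimates are doubtful. Hba1 has no span in the reference and no read estimate.

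The promoters of the highest genes are shown as sequence because these genes take the largest share of the summed value. Of the first 20 genes, 15 matched a RefSeq GRCr8 promoter window of 250 bases before to 50 after the gene start. The letters TATAA, on the gene's strand and starting 40 to 20 bases before the gene start, were present for 4 of the 15, against 2.48% of all 33469 windows. The stretches below run from 120 bases before the gene start to 20 after, 5′ to 3′, with TATAA and the first base of the gene in capitals. The first 4 carry TATAA in that window. In Tuba1a, the highest entry, the same letters start 60 bases before the gene start, outside the window, and in Rpl37 they are not in the stretch.
Hspa8 (chr8:50080394-50080533, plus strand): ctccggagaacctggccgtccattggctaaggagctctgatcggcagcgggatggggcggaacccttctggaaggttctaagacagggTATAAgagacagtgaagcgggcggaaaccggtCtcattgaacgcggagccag
Tmsb10 (chr4:106569121-106569260, minus strand): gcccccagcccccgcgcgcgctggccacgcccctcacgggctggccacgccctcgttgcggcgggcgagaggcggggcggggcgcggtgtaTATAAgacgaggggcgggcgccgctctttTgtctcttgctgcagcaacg
Eef1a1 (chr8:88225050-88225189, minus strand): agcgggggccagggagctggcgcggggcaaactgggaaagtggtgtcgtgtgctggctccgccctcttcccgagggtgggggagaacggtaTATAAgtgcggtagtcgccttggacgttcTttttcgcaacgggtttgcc
LOC100134871 (Hbbl1) (chr1:167650216-167650355, minus strand): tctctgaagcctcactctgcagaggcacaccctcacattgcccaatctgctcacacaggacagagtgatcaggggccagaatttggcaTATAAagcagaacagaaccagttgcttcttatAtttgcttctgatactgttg
Tuba1a (chr7:131995800-131995939, minus strand): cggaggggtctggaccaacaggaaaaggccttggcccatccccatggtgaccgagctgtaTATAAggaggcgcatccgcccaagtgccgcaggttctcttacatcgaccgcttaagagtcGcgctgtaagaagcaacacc
Rpl37 (chr2:55942825-55942964, plus strand): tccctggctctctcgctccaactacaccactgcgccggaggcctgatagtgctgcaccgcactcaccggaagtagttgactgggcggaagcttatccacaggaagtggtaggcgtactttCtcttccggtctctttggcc
TATAA started 32 bases before the gene start in Hspa8 and in Hbbl1, and 29 bases before it in Tmsb10 and Eef1a1. A match of letters is a description of the window and no measure of binding.

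The glutamatergic lineage was present from progenitor to neuron. Among 15 radial glia genes, 14 were expressed by the rule used here (above the offset in all 6 pups and a mean at or above 0.214, the median of all entries). Fabp7, a brain lipid-binding protein, led them at 66.9 ± 4.87, followed by the intermediate filament Vim at 55.8 ± 5.00 and the progenitor factor Sox2 at 27.9 ± 4.84. Prom1 was the member just below that level, between 0.204 and 0.239 by pup. All 7 intermediate progenitor genes read here were expressed, with the co-repressor Rcor2 (26.9 ± 4.02), the anti-proliferative Btg2 (10.6 ± 1.11) and Gadd45g (8.68 ± 1.23) highest. All 14 cell division genes were expressed too. Pcna, the sliding clamp of DNA replication, was at 18.9 ± 1.32, Ube2c at 7.58 ± 0.94 and Rrm2 at 7.06 ± 0.83.

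Neuronal genes covered a wide range per span. Tubb3, the neuronal beta-tubulin, was at 260 ± 19.0. Neurod6 and Neurod2, basic helix-loop-helix factors of young glutamatergic neurons, were at 90.1 ± 24.7 and 82.6 ± 18.1. Pup 2-1 was lowest for both, at 46.8 and 50.8, while the other 5 pups held at least 79.9 and 81.1. Of 18 pan-neuronal genes, 17 were expressed, and Syt1, a synaptic vesicle calcium sensor, had a per-span value of 0.087 but an estimated 2198 reads.

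Per span, layer genes were led by Pou3f3 of the upper layers, followed by Fezf2 and Tbr1 of the deep layers. By estimated reads the deep layer genes Fezf2 (8506), Bcl11b (7318) and Tbr1 (7206) stood above Pou3f3 (5009). Fezf2, which directs subcortical projection neurons, was at 20.4 ± 5.15 (lowest 10.4, median 21.7, highest 24.5), Tbr1 at the values above and Nr4a2, a nuclear receptor of the subplate, at 7.95 ± 1.75. Of the 10 deep layer genes, 7 were expressed, while Ldb2, Sox5 and Foxp2, which are long genes, read between 0.0285 and 0.116 per span. Among upper layer genes, the POU factors Pou3f3 (34.6 ± 6.29) and Pou3f2 (8.89 ± 1.77) were highest per span. Cajal-Retzius genes were expressed in 6 of 7 cases, led by Nhlh2 (4.04 ± 0.79), Calb2 (0.878 ± 0.22) and Lhx5 (0.582 ± 0.192), and Reln, the secreted guidance protein of these cells, was at 0.453 ± 0.046 per span with an estimated 9015 reads.

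Hippocampal and cortical hem genes were split between both classes. Neurod1, of newborn granule neurons among others, was at 14.5 ± 3.27, the cortical selector Lhx2 at 5.80 ± 1.18 and Emx2, a patterning factor high in medial cortex, at 2.96 ± 0.53. Of the 12 genes read here, 6 were expressed and 6 were low. Prox1, the factor of dentate granule cells, was at 0.209 ± 0.023. The hem signals Wnt3a (0.0441 ± 0.0065) and Wnt2b (0.138 ± 0.019) and the hem factor Lmx1a (0.0414 ± 0.0062) were above the offset in all 6 pups.

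Genes of the ganglionic eminences and interneurons were nearly all expressed, 18 of 19. Sst, the peptide somatostatin, was highest per span at 66.9 ± 15.4 (lowest 53.0, median 64.7, highest 94.6), followed by Dlx1 and by the chemokine receptor Cxcr4 at 15.6 ± 1.22. By estimated reads Dlx1 (6700) stood above Sst (3833). Dlx2 was at 15.1 ± 5.68, Slc32a1, the vesicular GABA transporter, at 11.8 ± 4.28, and Lhx6, a factor of medial eminence interneurons, at 2.65 ± 0.36. Nkx2-1, the homeobox factor of the medial eminence, was at 4.62 ± 2.89 and ran from 1.79 over a median of 4.70 to 9.74. The exception was Erbb4, a very long gene, at 0.0126 ± 0.0011. Pup 2-1 was highest for Sst, Dlx1, Dlx2, Slc32a1, Lhx6 and Nkx2-1 and lowest for Cxcr4.

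Genes of regions outside the cortex formed a graded series. Of 12 striatal genes, 8 were expressed, with the peptide precursor Penk at 3.72 ± 0.56 and the dopamine signalling protein Ppp1r1b at 2.23 ± 0.40. All 5 thalamic genes read here were expressed, at low level per span, where Gbx2 (1.01 ± 0.79), Prkcd (0.593 ± 0.060) and Olig3 (0.489 ± 0.068) led. By estimated reads the order changed, with the long gene Tcf7l2 highest at 3868. Prkcd had 850 estimated reads, Gbx2 122 and Olig3 48. Of 17 genes of hypothalamus, midbrain and hindbrain, 11 were silent, which was set at a mean under 5 estimated reads. For scale, En2, just above that limit at 5.63 estimated reads, stood at percentile 26.1 of entries by reads. The 11 silent genes included the 6 Hox genes read here (Hoxa2, Hoxb3, Hoxb4, Hoxb5, Hoxc4 and Hoxd3), the midbrain and hindbrain factors Pax2, Pax5 and Pax7, the dopamine transporter Slc6a3 and the peptide Hcrt. Otp, a hypothalamic factor, was the highest of the 17 at 0.382 ± 0.222, with 3 pups (1-3, 2-1 and 2-2) between 0.549 and 0.618 and the others between 0.171 and 0.186. Pomc stood at 0.284 ± 0.037 and Th at 0.155 ± 0.083.

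Non-neuronal genes were led by a few very high entries. Ttr, the transthyretin of choroid plexus, was at 140 ± 20.6 and ranked 57th, while the next choroid plexus genes, Aqp1 (2.64 ± 0.45) and Msx1 (2.48 ± 0.36), were far lower. Pup 1-1 was highest in 7 of 9 choroid plexus genes (Ttr at 180), against 7.92% of the 13023 entries above the offset in all pups. Cldn5, the tight junction protein of brain endothelium, was at 52.3 ± 7.02 per span, above Slc2a1 (3.03 ± 0.20) and Esam (1.75 ± 0.13). By estimated reads Slc2a1 (3964) stood above Cldn5 (3442). Pericyte genes were led by Vtn (2.66 ± 0.36), Pdgfrb (1.13 ± 0.11) and Kcnj8 (1.10 ± 0.16). Microglial genes were led by the complement components C1qc (3.94 ± 0.53), C1qa (3.76 ± 0.18) and C1qb (2.65 ± 0.24), and 10 of 12 were expressed. Among meningeal genes, Ptgds, Col1a1 and Col3a1 were highest per span at 4.85 ± 3.66, 4.84 ± 1.06 and 2.90 ± 0.49. By estimated reads Ptgds (751) stood below Col1a1 (3859) and Col3a1 (4927). Pup 1-2 was lowest in 9 of 10 meningeal genes, against 17.6% of the same 13023 entries.

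Early genes of the oligodendrocyte lineage stood above most myelin genes. Olig1, a factor of the oligodendrocyte lineage that progenitors also use, was at 14.1 ± 3.45, Olig2 at 4.46 ± 1.21 and the precursor receptor Pdgfra at 0.724 ± 0.112. The myelin genes Mbp (0.126 ± 0.010), Mag (0.107 ± 0.041) and Mobp (0.00455 ± 0.00233) were low. Mog, a protein of mature myelin, read 2.13 ± 0.22 and was above all 3 of them, with a narrow range of 1.81 to 2.35. Of 10 astrocyte genes, 7 were expressed, led by Aldoc (36.9 ± 3.28), Apoe (23.5 ± 3.04) and Sparcl1 (4.43 ± 0.34), while Gfap was at 0.762 ± 0.101 and the transporter Slc1a2 at 0.0329 ± 0.0033. Immediate early genes, which report recent cell activation, were led by Jun (20.3 ± 1.07), Ier2 (11.9 ± 0.92) and Dusp1 (11.6 ± 0.48), and Fos was at 0.236 ± 0.066.

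**Figure D2:**
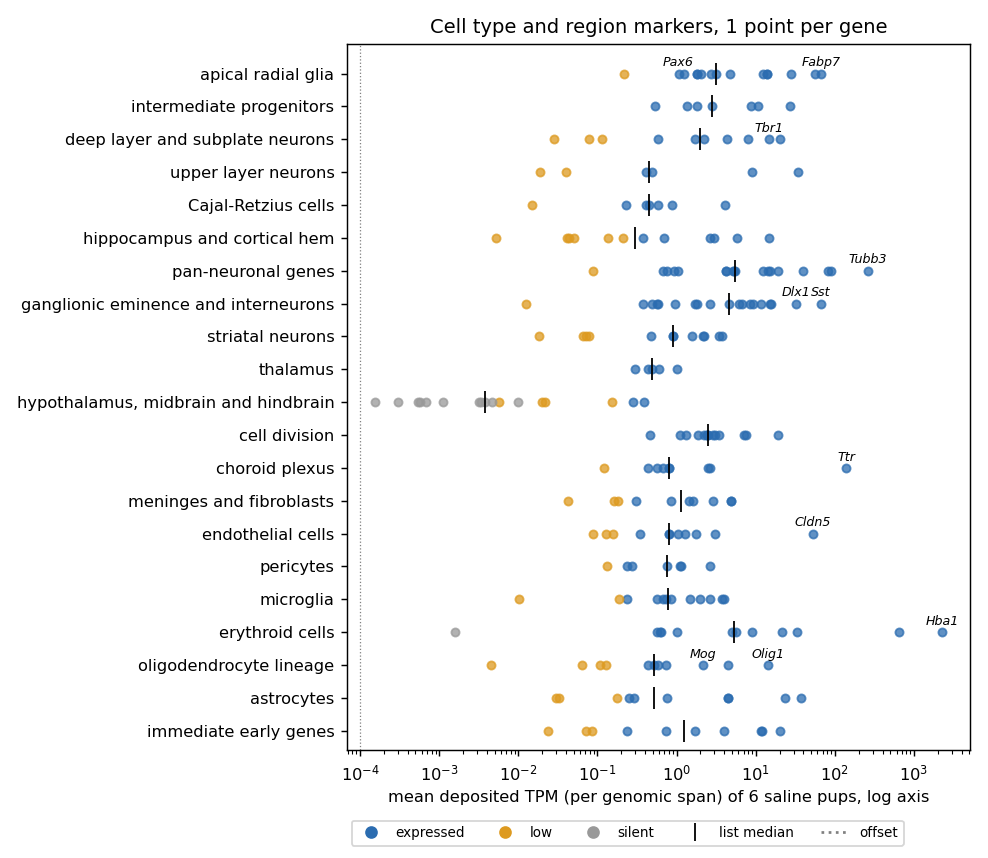
Mean deposited TPM over 6 saline pups (log axis) for each gene of 21 marker lists, coloured as expressed, low or silent, with the list median as a bar and the offset as a dotted line. Hindbrain, midbrain and hypothalamic genes reach down toward the offset, and Pax6 lies well to the left of Tbr1, Dlx1 and Fabp7.

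Paralogs, genes that share an ancestor by duplication, were read in 40 families with 192 members. By the same rule 135 were expressed, 22 were low and 35 were silent, and 9 of the silent members stood at the offset in all 6 pups. For scale, En2, just above the limit for silent at 5.63 estimated reads, stood at percentile 26.1 of entries by reads. The level for expressed is itself the median of all entries. These counts are a description, and no excess or lack of silent paralogs is read from them. Every member read was expressed in 19 families, among them the beta-tubulins, stathmins, intermediate filaments, SoxC, Pou3 and Id factors, calmodulins and D cyclins. A silent member was found in 16 families. Counts of silent members depend on the read limit and the depth: 21 were silent under 1 read and 38 under 20 reads.

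Cytoskeletal families kept their embryonic and general members. Tuba3a and Tuba3b, testis alpha-tubulins, were silent beside Tuba1a, and Tuba8 was low at 0.0171 ± 0.0083. Actc1, the cardiac actin, was silent at 0.0180 ± 0.0084 beside Actg1, and the smooth muscle Acta2 was at 0.357 ± 0.205. Fabp5 and Fabp7 were the fatty acid binding proteins of the tissue at 78.9 ± 7.47 and 66.9 ± 4.87, with Fabp3 at 1.59 ± 0.11. The other 6 of 9 were silent, and Fabp1, Fabp6, Fabp9 and Fabp12 were at the offset in every pup. Among beta-tubulins the lowest was Tubb6 at 2.29 ± 0.12.

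Transcription factor families were divided more sharply. Of 9 Pax genes, Pax6 was expressed, Pax4 was low at 0.0165 ± 0.0104, and Pax1, Pax2, Pax3, Pax5, Pax7, Pax8 and Pax9 were silent. Dlx1, Dlx2 and Dlx5 were expressed, whereas Dlx3 and Dlx4 were at the offset in 5 and 4 pups. Of 8 T-box genes Tbr1 and Tbx18 (0.293 ± 0.048) were expressed and Tbx1, Tbx5, Tbx20 and Tbx21 were silent. Neurog3, of the endocrine pancreas, and Hes3 were at the offset in all 6 pups, while Neurog1 was at 1.35 ± 0.45 and Hes6, an antagonist of Hes1, at 98.2 ± 8.9. Of 11 LIM-homeobox genes, 7 were expressed, led by Lhx2, and Isl2 and Lmx1b were silent. All 3 SoxC factors were high, with Sox4 at 123 ± 10.9, Sox11 at 86.8 ± 9.20 and Sox12 at 70.4 ± 8.96.

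Metabolic and transport families showed silent forms known from other organs. Ldhc and Pgk2, the sperm forms of lactate dehydrogenase and phosphoglycerate kinase, were silent beside Ldha (16.9 ± 1.24) and Pgk1 (5.91 ± 0.35). Cox6a2 and Cox8b, muscle forms of cytochrome oxidase subunits, were silent beside Cox6a1 (52.7 ± 3.67) and Cox8a (41.9 ± 6.01). Slc2a2, the liver glucose transporter, was silent and Slc2a1 was highest of its 4 family members. Gabra6, the cerebellar granule cell subunit, was silent, and Gabra5 was the highest GABA-A alpha subunit per span at 0.251 ± 0.031. Among globins Mb, the muscle myoglobin, and Hbe2 were silent, while Ngb, neuroglobin, was at 0.377 ± 0.046 and Cygb, cytoglobin, at 1.5 ± 0.15. The embryonic globins Hbe1 (9.01 ± 2.68), Hbz (0.623 ± 0.183) and Hbg1 (0.564 ± 0.203) were above the offset in all 6 pups.

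**Figure D3:**
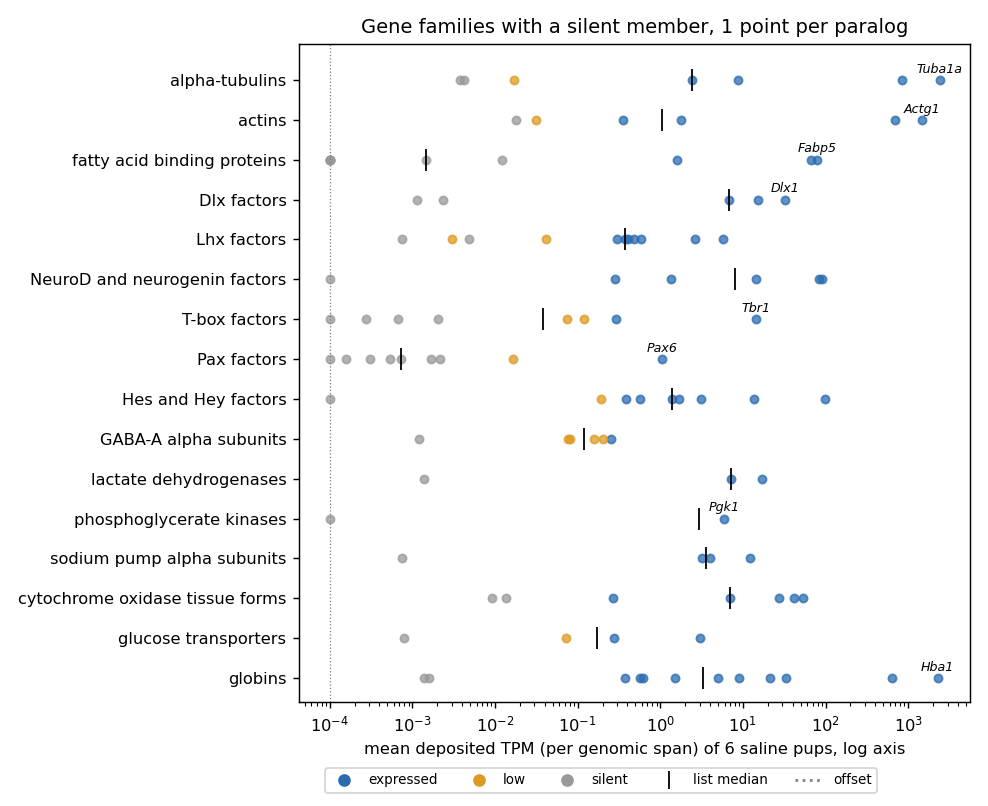
Mean deposited TPM over 6 saline pups (log axis) of each paralog in the 16 families with a silent member, with the family median as a bar and the offset as a dotted line. Of the Pax factors Pax6 lies at 1.06, with Pax4 at 0.0165 and 7 members below it.

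Paralogs were also set against each other within each pup, in 28 pairs, by the log2 ratio of the values and by the same ratio of estimated reads. In 26 pairs 1 member was higher in all 6 pups, for which the two-sided exact sign-flip permutation test gave p = 0.03125, the smallest that 64 patterns allow. For 21 pairs both scales gave the same order, and 20 of these were at that p. For the other 7 pairs the mean ratio changed sign on the read scale, 6 of them pairs at that p per span, so no order is given for them here.

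Among pairs that kept their order, Eef1a1 exceeded Eef1a2, the form of mature neurons and muscle, by 59.9-fold (log2 5.90 ± 0.31, and 4.65 in reads). Camk2b exceeded Camk2a, the kinase subunit of mature synapses, by 14.8-fold (3.88 ± 0.26), and Grin2b exceeded Grin2a, the later NMDA receptor subunit, by 5.04-fold (2.33 ± 0.18). Stmn1 exceeded Stmn2 by 18.3-fold (4.19 ± 0.06), but by a log2 of 1.33 on the read scale. Tubb2b exceeded Tubb2a by 9.86-fold, and Tubb5 exceeded Tubb3 by 4.02-fold (log2 of Tubb3 over Tubb5 -2.01, and -0.88 in reads). Actg1 exceeded Actb by 2.11-fold. Pou3f3 exceeded Pou3f2 by 3.91-fold (log2 of Pou3f2 over Pou3f3 -1.97, and -1.05 in reads). Sox4 exceeded Sox11 by 1.42-fold (log2 of Sox11 over Sox4 -0.51, and -1.73 in reads). The size of these ratios differed between the scales, while their spread between pups was narrow, with SDs of the log2 ratio between 0.04 and 0.17 for the last 5 pairs.

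Transmitter and ion transport pairs were ordered as follows. Slc17a7 (5.17 ± 0.83), the vesicular glutamate transporter of cortical neurons, exceeded Slc17a6 (0.918 ± 0.176) by 5.65-fold per span (log2 of Slc17a6 over Slc17a7 -2.50 ± 0.31, and -0.74 in reads). Slc12a5, the chloride exporter that lowers neuronal chloride, exceeded the importer Slc12a2 by 5.12-fold (log2 of Slc12a2 over Slc12a5 -2.36 ± 0.42, and -1.56 in reads). Gad1 exceeded Gad2, the other GABA-synthesising enzyme, by 3.50-fold (log2 1.81, and 1.19 in reads). Dlx1 exceeded Dlx2 by 2.20-fold and Hes5 exceeded Hes1 by 4.34-fold. Ldha exceeded Ldhb by 2.34-fold (log2 1.22, and 0.29 in reads), Eno1 exceeded Eno2 by 1.75-fold and Aldoa exceeded Aldoc by 1.18-fold. Bcl11a and Bcl11b could not be ordered, at a mean log2 ratio of -0.16 ± 0.24 and p = 0.09375 by the exact permutation test.

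Most genes varied little between the 6 pups. Over the 5253 entries with a mean above 1, the median SD of the log2 value between pups was 0.13, and 33 entries (0.628%) had an SD above 0.5. The 20 most variable, led by LOC100911498, Avp, Rn18s, Zic4 and Gbx2, had a median SD of 0.70. In the other groups the same 20 had median SDs of 0.72 (Low Protein), 0.45 (MAM) and 0.71 (Poly I:C). The choice of these genes used the saline values, so their SDs in saline are a description.

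The largest spread was that of a sex-linked transcript. LOC100911498, an entry whose gene ID RefSeq now gives to Xist, the RNA of the inactive X chromosome, was between 13.4 and 19.3 in pups 1-1, 1-2, 2-1 and 2-2, and at 0.114 and 0.0387 in pups 1-3 and 2-3. The Y-linked Eif2s3y showed the reverse, at 2.38 and 2.19 in pups 1-3 and 2-3 and at most 0.00316 in the other 4. Each litter therefore held 1 pup of the second pattern and 2 of the first. The labels give no sex.

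Several of the variable genes were highest in pup 2-1. Zic4 and Zic1, zinc finger factors of septum and other midline forebrain, reached 4.12 and 19.0 in that pup against at most 1.79 and 8.95 in the others. Gbx2, of the thalamus, reached 2.42 against at most 1.29. Nkx2-1 reached 9.74 against at most 4.93. These genes had their highest pup at 2.07 to 3.76 times the median.

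Zfp503 (8.35 against at most 5.08) and Six3 (4.25 against at most 2.36), factors of the developing striatum, and Pou3f4 (12.1 against at most 7.24) were also highest in pup 2-1. Slc10a4, a vesicular protein of cholinergic and monoaminergic neurons, reached 3.47 against at most 1.39, and Ecel1, an endopeptidase of the nervous system, 2.4 against at most 1.11. Tusc2 was at 14.9, 14.1 and 14.0 in pups 2-1, 1-1 and 1-2 and between 6.36 and 7.28 in the other 3. Pup 2-1 was highest in 12 of the 20 entries (18.2% of 13023 entries above the offset in all pups), and nothing is read from this count, since some of the 12, such as Gbx2 and Ecel1, had a mean above 1 only with that pup. RGD1565844 was at 1.81 in pup 2-1 and at most 1.18 in the others. Avp, the hypothalamic peptide vasopressin, ran from 0.0422 to 2.70 and was high in 3 pups (2-1 at 2.70, 1-3 at 1.98 and 2-2 at 1.44), the same 3 pups in which Otp was high.

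Other variable entries peaked in other pups. Ptgds reached 12.3 in pup 1-3 against at most 3.87, and H19, an imprinted noncoding RNA, 35.3 in the same pup against at most 24.5. Bc1, a short neuronal noncoding RNA, reached 219 in pup 1-2 against at most 117. The ribosomal RNA entries Rn18s and Rn28s ran from 81.0 to 646 and from 124 to 359. Both were highest in pup 2-3, in libraries for which polyadenylated RNA was selected. Mt1, the metal-binding metallothionein, was at 0.80 in pup 2-1 and up to 3.26 in pup 1-1, and Hist1h2ail1, a histone entry, ran from 0.486 to 1.49.

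**Figure D4:**
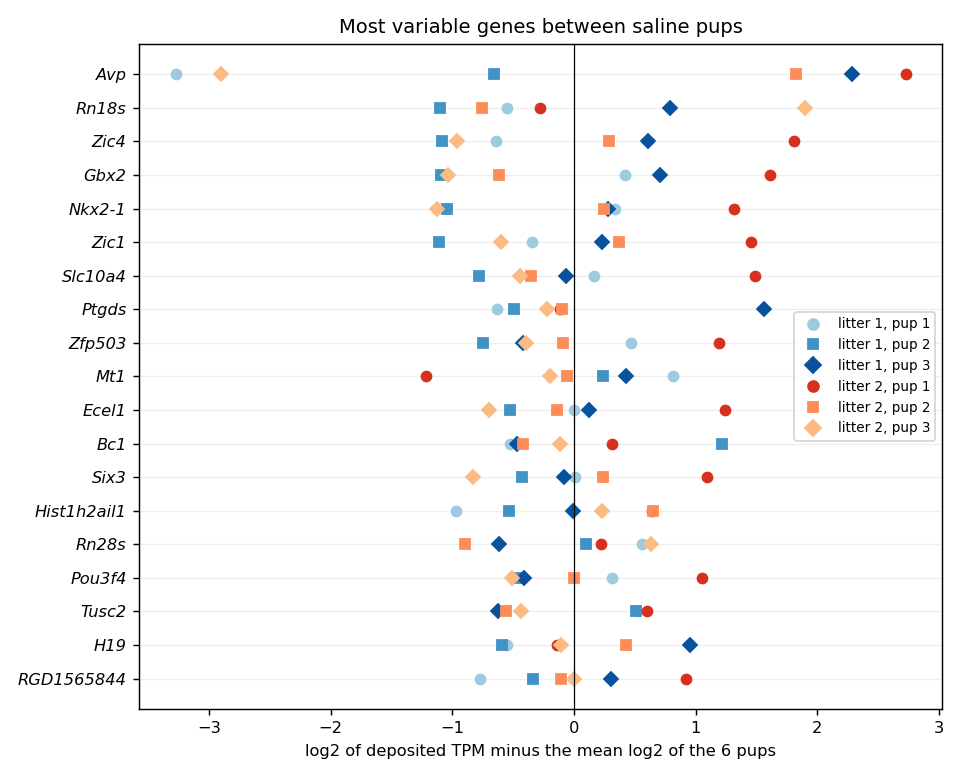
Log2 of deposited TPM minus the mean log2 of the 6 pups, for 19 of the 20 most variable genes (LOC100911498 left out for scale), with 1 point per pup. Pup 2-1 (dark red circles) lies far right for Zic4, Gbx2, Nkx2-1, Zic1, Slc10a4, Zfp503, Ecel1, Six3 and Pou3f4, and far left for Mt1.

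Pup 2-1 also lay at the end of several marker lists. Pup 2-1 was highest in 15 of 19 ganglionic eminence and interneuron genes and in 11 of 12 striatal genes, against the same 18.2% of entries above the offset in all pups. It was lowest in 8 of 10 deep layer genes and 5 of 6 upper layer genes, against 34.6% of those entries. The remaining members, Bcl11b and Foxp2 of the deep layers and Rorb of the upper layers, were instead highest in pup 2-1. The median deviation of its log2 values from the 6-pup mean was 0.63 for ganglionic, 0.87 for striatal, -0.35 for deep layer and -0.37 for upper layer genes. Its summed value of ganglionic genes was 257, while the other 5 saline pups spanned 163 to 191 and the 18 pups of the other groups 114 to 180. For striatal genes the sum was 23.8 in pup 2-1, 12.6 to 16.2 in the other saline pups and 7.38 to 17.4 in the other groups. For deep layer genes it was 36.1 in pup 2-1, 50.5 to 61.0 in the other saline pups and 45.4 to 63.4 in the other groups. For upper layer genes it was 33.6 in pup 2-1 and 41.2 to 58.4 in the other saline pups, and the other groups, at 28.9 to 61.3, held the value of pup 2-1 within their range. Thalamic genes were mixed, with pup 2-1 highest in 2 of 5 (Gbx2 and Tcf7l2) and a median deviation of 0.10. Their sum was 4.59 in pup 2-1 and 1.91 to 3.47 in the other saline pups. In the list of hypothalamus, midbrain and hindbrain, pup 2-1 was highest in 3 of the 5 genes above the offset in all pups, against 18.2% of such entries. Its median deviation there was 0.93. Those 5 are the part of 17 genes that passed this filter, and 1 of the 3, Slc6a4, had only 1.61 to 14.6 estimated reads by pup. Pup 2-1 had one of the shallowest libraries (22.6 M without Rpl29), and the part of depth in these values was not tested.

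The ranges without pup 2-1 are given as values only, since genes for which it was highest must narrow. Nkx2-1 then ran from 1.79 to 4.93, Dlx2 from 9.65 to 16.4 and Six3 from 1.12 to 2.36. Of the 20 most variable genes, 11 were also among the 20 most variable of the 5 other pups.

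Other lists had other pups at their ends. Pup 2-1 was lowest in 5 of 9 choroid plexus genes, against 34.6% of entries above the offset in all pups, with a median deviation of -0.32. Globin and other erythroid genes, summed, spanned 2087 in pup 2-2 to 3609 in pup 1-3. Pup 1-3 was highest in 7 of 11 erythroid genes above the offset in all pups, against 28.8% of such entries, and pup 2-2 was lowest in 6 of 11, against 6.03%. The summed erythroid value of the 18 other pups spanned 1930 to 4676. Pup 2-3 was lowest in 8 of 11 endothelial genes, against 18.9%. Pup 2-2 was highest in 5 of 6 upper layer genes, against 25.4%.

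**Figure D5:**
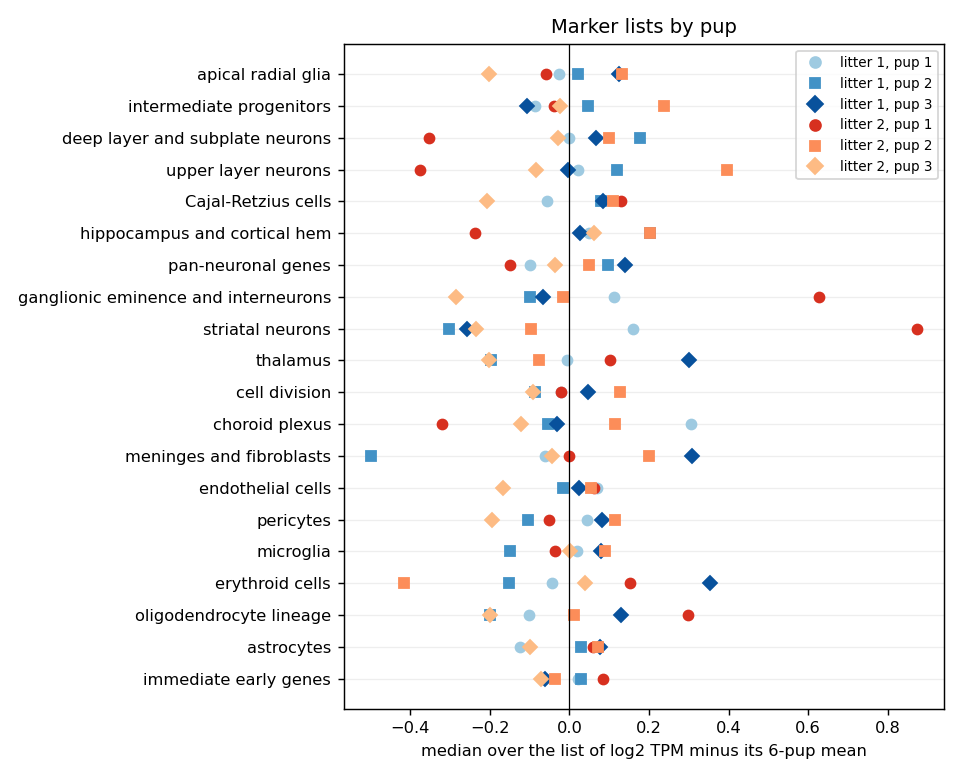
Median over each marker list shown of the log2 deposited TPM minus its 6-pup mean, with 1 point per saline pup. Only genes above the offset in all 6 pups are used. The sex-linked list and the list of hypothalamus, midbrain and hindbrain are left out. Pup 2-1 lies at 0.87 for striatal and 0.63 for ganglionic genes and at -0.35 and -0.37 for deep and upper layer genes.

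The 2 litters were compared gene by gene. In a limma fit over the 5253 entries with a mean above 1, 0 passed an adjusted p of 0.05 (0% of those tested), and 69 (1.31%) had an unadjusted p under 0.05, 44 higher and 25 lower in litter 2. If no gene differed, a share near 0.05 would pass that unadjusted limit on average, which is more than the 1.31% found. The median share of a gene's variance that lay between litters was 10.9%. Any division of the pups into 2 sets gives a share above 0, so the 10.9% is no measure of a litter effect. The test has 3 pups against 3, and each litter is 1 dam, so litter, dam and any handling that went with it cannot be told apart.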

How the data were processed

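RNA of hippocampus and neocortex was made into stranded, poly(A)-selected libraries and sequenced as paired ends. Per the labels and the study's methods, the authors trimmed reads in Partek Flow, aligned them to rn6 with STAR 2.4.1d and quantified genes with the Partek E/M algorithm against RefSeq. The deposited table holds TPM values with an offset of 0.0001, in 1 column per sample. The sum of 70350 per column and the fall of values on multiples of a step once multiplied by span show division by genomic span. Estimated reads were computed as the value times the RefSeq GRCr8 span divided by that step. Spans were found for 17222 of 17420 entries (15098 by symbol, 1889 by synonym, 235 by gene ID). Of the entries, 26 had names that are dates.

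Only the 6 saline pups entered the levels. SDs are over pups (n = 6). Whether pups of a litter count as independent is not known beyond the labels, and the p-values take each pup as a unit. They therefore describe these pups and not dams. At its smallest value the sign-flip p records only that the ratio had the same sign in all 6 pups. Depth, by the size of the step that 1 read makes, differed 2.10-fold between pups, and values near 1 read are counting noise. Genes were named as the 20 highest entries, the 10 highest by reads, the leading and defining members of each marker list, the leading and silent members of families, the 20 most variable and the listed pairs. The lists and members were chosen with earlier results of these data known. Pairs were tested by a two-sided exact sign-flip permutation test and not adjusted. Litters were compared with limma 3.58.1 (R 4.3.3) on log2 values with Benjamini-Hochberg adjustment, tested on simulated data. Alternatives covered filters, added constants, scaling, variance trend, all 24 pups, a replicate block and leaving out each pup. Some entries and pairs are not reported here. Other steps used Python 3.11.15, pandas 2.3.3 and numpy 2.4.6.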

Additional observations from a re-analysis of the deposited data

Results flagged for a closer look

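Each gene with values in the report was tested for a pup far from the other 5, by whether its gap to the nearest pup, as a share of the whole range, exceeded Dixon's 95% critical value for 6 samples. Of 209 genes, 34 had such a pup, and chance flags about 1 in 20 groups of samples. That rate does not apply to these genes, since some were named for their spread and some silent genes stood at the offset in all but 1 pup. Pup 2-1 was that pup for 17 genes, above the others in 14 and below in 3.

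The high values of pup 2-1 fell on genes of several kinds. Dlx1 was at 44.8 (next pup 31.5), Slc32a1 at 19.9 (12.2), Gad2 at 0.757 (0.501) and Calb2 at 1.30 (0.911). Zic4 was at 4.12 (1.79), Zic1 at 19.0 (8.95), Slc10a4 at 3.47 (1.39) and Ecel1 at 2.4 (1.11). Nnat was at 1568 (1050), Tubb2a at 214 (170), Camk2a at 0.256 (0.210) and Mag at 0.186 (0.110). The near-silent Tuba3a (0.0132) and Dlx4 (0.0109) were also highest there, at a few reads. Its low values were Fezf2 at 10.4 (20.3), Neurod1 at 8.38 (14.4) and Lhx2 at 3.57 (5.84).

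Other pups stood apart for single genes. Pup 1-1 was highest for Ttr at 180 (140), pup 1-2 for Bc1 at 219 (117), and pup 1-3 for Ptgds at 12.3 (3.87), Kcnj8 at 1.42 (1.10) and Prom1 at 0.239 (0.215). Pup 1-2 was lowest for C1qc at 2.94 (3.94). Pup 2-3 was highest for Grin2b at 0.0257 (0.0194).

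The remaining flags fell on silent genes, where a few reads in 1 pup suffice. They were Hoxa2 (0.020) and Hoxb5 (0.0206) in pup 2-2, Hoxb3 (0.00629), Dlx3 (0.00628) and Tbx1 (0.00754) in pup 1-1, Pax3 (0.00369), Isl2 (0.0226) and Hbe2 (0.00893) in pup 1-3, and Hcrt (0.0224) and Tuba3b (0.0196) in pup 2-3.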

How the results depend on the processing

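Levels between genes depend most on length. Of the 20 highest entries, 9 stayed among the 20 highest by estimated reads, and all 20 stayed when any 1 pup was left out. On the read scale the mean ratio of 7 pairs changed sign: Ccnd2 over Ccnd1 had a log2 ratio of 0.76, Fabp7 over Fabp5 0.49, Marcks over Marcksl1 0.52, Neurod6 over Neurod2 -0.27, Nr2f1 over Nr2f2 -0.27, Stmn3 over Stmn4 -0.10 and Tmsb10 over Tmsb4x -0.30. Silent family members numbered 35, but 21 under 1 read. Of 22 marker lists, 21 had a median above the 50th percentile of entries, and 19 by reads.

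Among the 20 most variable genes, 2 remained when all genes above the offset in all pups were ranked, 16 to 19 under the other constants, scaling or the coefficient of variation, and 11 to 18 when 1 pup was left out, the fewest without pup 2-1. The counts for pup 2-1 in the marker lists, recomputed with median of ratios scaling, an alternative chosen after seeing the data, stayed at 15, 11 and 8, and upper layer genes went from 5 to 4.

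The litter comparison by limma gave 0 adjusted calls except with no filter on low values, which gave 9 among 14668 entries. Genes with an unadjusted p under 0.05 numbered 69 of 5253, and 247 of 14668 with no filter and 254 of 13026 with genes above the offset in all 6 pups. Among the 5253 they numbered 160 with all 24 pups in the fit and 403 with a replicate block. Leaving out 1 pup gave 28 (without pup 1-2), 45 (2-1), 57 (1-3), 107 (2-2), 237 (2-3) and 327 (1-1). The replicate block left 0 adjusted calls, and pup numbers are shared between litters only as numbers. The cause of these shifts was not tested. Rescaling to transcript or coding length was not run, since no such lengths were at hand. Genes with few reads limit what depth can show: a gene silent here may be present below a few reads.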
